A study of Mus musculus with 15 samples.

Results

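The miR-17 to miR-92a cluster is a set of miRNAs cut from 1 shared primary transcript, and it was followed here in the lungs of mice injured with bleomycin. Its members were taken by name from the deposited table of mature mouse miRNAs: 8 of 1424 rows, namely both strands of the miR-17 and miR-18a hairpins and the abundant strands of the miR-19a, miR-20a, miR-19b and miR-92a hairpins. All 8 passed the filter on low values and stood among the 818 miRNAs tested. Small RNA was sequenced in 15 libraries from whole lungs of C57BL/6 mice aged 11 weeks, in 4 groups. R213G bleomycin (n = 4) were mice homozygous for the R213G form of extracellular superoxide dismutase (EC-SOD) that received 100 uL of bleomycin at 1 U/mL once into the trachea, and R213G PBS (n = 4) were mice of that genotype given phosphate-buffered saline. WT bleomycin (n = 4) and WT PBS (n = 3) were the same treatments in mice with the unaltered enzyme. Lungs were taken on day 7 in every group, after flushing with PBS. Both sexes were used, but the labels here do not tie a sex to a library. Nothing in the labels beyond the library names says that each library was a separate mouse, so p-values measure the spread between these libraries.

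The cluster is a direct target of the transcription factor Myc and is best known for driving proliferation, hence its name oncomiR-1 in human lymphomas. In mice its deletion leaves newborns with small lungs, and its expression is high in the embryonic lung and low in the adult lung. A miRNA finds its targets mainly through its seed, the bases just after the first one, so members that share a seed share most predicted targets. The miR-17 and miR-20a guides restrain the cell cycle inhibitor Cdkn1a and the pro-death factor Bcl2l11, and miR-92a-3p restrains the integrin Itga5 in endothelial cells. One transcript carries all the hairpins, but each is cut out separately, and in human cells hnRNP A1 is known to help the cutting of miR-18a alone. EC-SOD removes superoxide outside cells, and the R213G form binds less firmly to the matrix.

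The 8 mature sequences are shown because several differ by so few bases that reads may be hard to assign, and because grouping by seed decides which members can be read together. All 8 matched RefSeq entries on GRCm38.p6; capitals mark the seed, bases 2 to 8 from the 5′ end.
mmu-miR-17-5p: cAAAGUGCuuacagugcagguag
mmu-miR-20a-5p: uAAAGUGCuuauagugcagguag
mmu-miR-18a-5p: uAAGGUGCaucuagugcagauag
mmu-miR-19a-3p: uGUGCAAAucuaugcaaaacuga
mmu-miR-19b-3p: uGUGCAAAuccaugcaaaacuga
mmu-miR-92a-3p: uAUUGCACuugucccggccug
mmu-miR-17-3p: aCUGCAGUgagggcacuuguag
mmu-miR-18a-3p: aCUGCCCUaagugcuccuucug
The 6 hairpins spanned 836 bases on the plus strand at chr14:115043671-115044506, all in exon 2 of the 2 exons of the long noncoding RNA gene Mir17hg (GENCODE M21, chr14:115042879-115046727), in the order miR-17, miR-18a, miR-19a, miR-20a, miR-19b-1, miR-92a-1. The guides miR-17-5p and miR-20a-5p share the seed AAAGUGC and differ by C1U and C12U, counted from the 5′ end with the base of miR-17-5p first. The miR-19 guides share the seed GUGCAAA, and U11C is their only difference, with the miR-19a-3p base first. Both miR-19b-3p and miR-92a-3p are also encoded, letter for letter, on the minus strand of chromosome X (chrX:52741991-52742013 and chrX:52741854-52741874) in the paralogous miR-106a to miR-363 cluster, so their values sum 2 loci and cannot be assigned to either. The other 6 members come from chromosome 14 alone, although miR-17-5p differs from miR-106a-5p of the paralogous cluster by U10A only. No source used here says how the authors' counting treated such near-identical reads, so the split between these pairs is uncertain.

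Levels are on the scale of the deposited values, judged from the values alone to be log2(1 + equalized count). Differences are between group means on that scale, with their standard errors (SE). The table's sums of equalized counts ran from 18087289.8 to 24759615.3 per library, and no source used here gives the read depths. A miRNA was called when its Benjamini-Hochberg adjusted p from limma, taken over all 818, was under 0.05. After bleomycin 182 miRNAs rose and 162 fell in R213G lungs (22.2% and 19.8% of those tested), and 134 rose and 84 fell in WT lungs (16.4% and 10.3%). In whole lung, fewer cells of a type and less RNA per cell cannot be told apart.

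Of the 8 members, 5 rose, 1 fell and 2 were not called in R213G lungs after bleomycin, with a median log2 difference of 0.46 against 0.05 over all tested miRNAs. In WT lungs 3 rose, 0 fell and 5 were not called, with a median of 0.38 against 0.05. These counts stand beside backgrounds of 22.2% rising in R213G lungs and 16.4% in WT lungs, and cover only 8 members. All members are encoded in 1 transcript, but the values of miR-19b-3p and miR-92a-3p also hold their chromosome X copies. Without WT PBS replicate 1, 0 members and 104 of all tested miRNAs rose in WT lungs. Without R213G bleomycin replicate 3, 3 members and 162 of all tested miRNAs rose in R213G lungs. The members did not move as a unit: miR-18a-5p stood far above the others, the other guides except miR-92a-3p rose by less in R213G lungs, and in WT lungs miR-17-5p alone of them was called. The minor strands miR-17-3p and miR-18a-3p were not called in R213G lungs, while miR-18a-3p rose in WT lungs. The most abundant member, miR-92a-3p, fell in R213G lungs and was not called in WT lungs. When all libraries were set to equal medians, which shifted the median tested miRNA by -0.13 in R213G and -0.12 in WT lungs, 3 members rose (miR-18a-5p, miR-19a-3p and miR-20a-5p) and 2 fell (miR-92a-3p and miR-17-3p) in R213G lungs, and 1 rose (miR-18a-5p) and 1 fell (miR-92a-3p) in WT lungs. The calls over all tested miRNAs then split into 148 up and 199 down in R213G lungs and 110 up and 121 down in WT lungs (114 and 108 in WT lungs with quantile normalization).

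**Figure D1:**
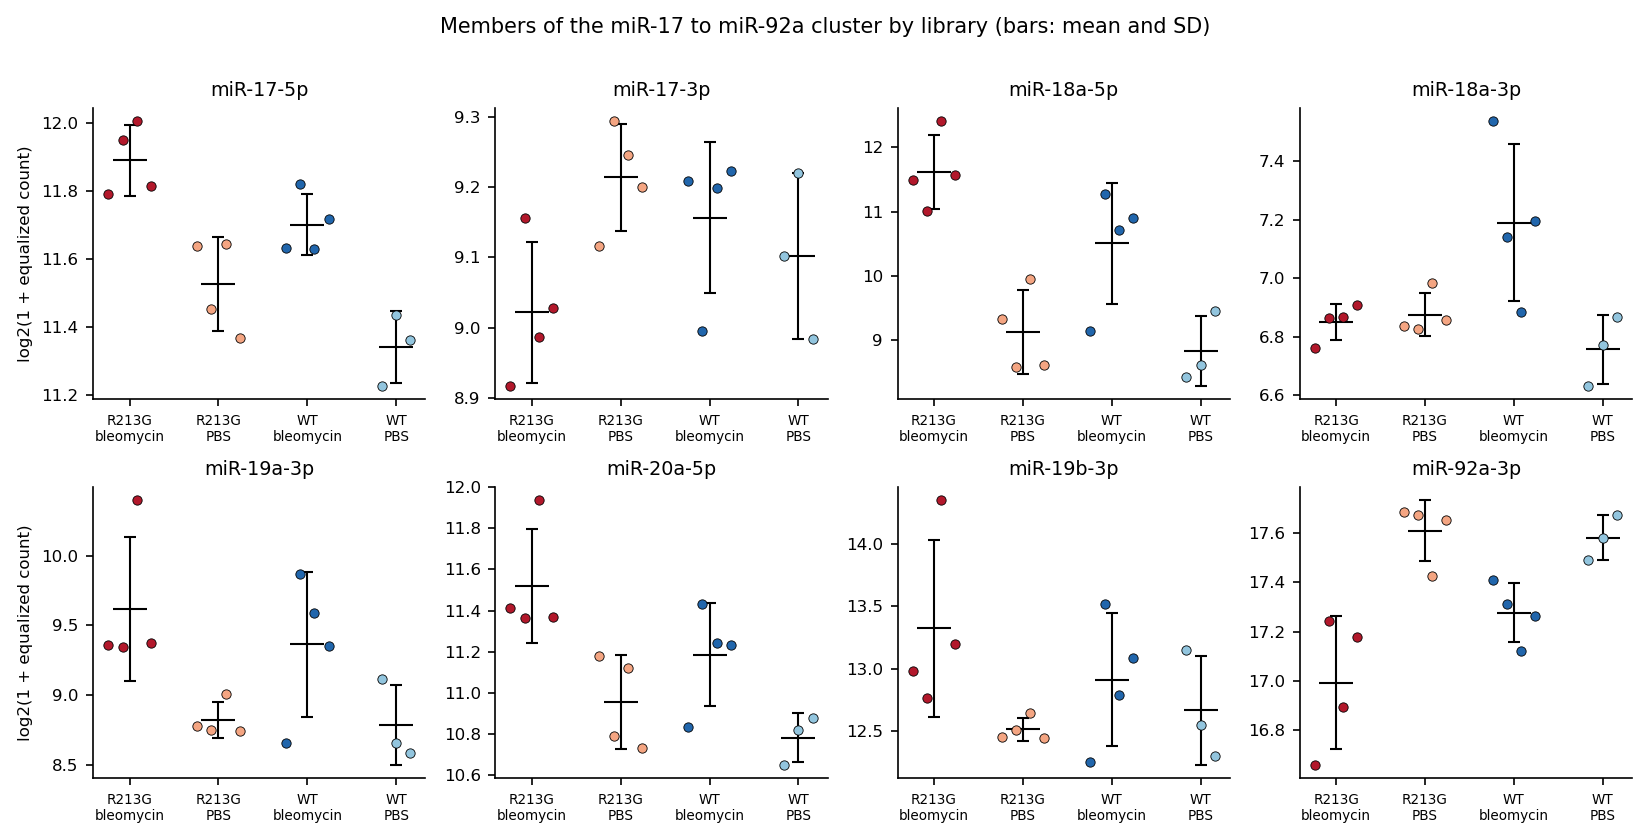
Level of each of the 8 members, as log2(1 + equalized count) (y axis, not starting at 0 and different in each panel), in every library of the 4 groups (x axis). Points are libraries and bars the group mean and SD; miR-18a-5p lay between 11.02 and 12.41 in R213G bleomycin lungs and between 8.59 and 9.95 in R213G PBS lungs, while miR-92a-3p was lower in all 4 R213G bleomycin lungs than in any R213G PBS lung.

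The guide strand miR-18a-5p, whose known targets include the matrix protein gene Ccn2, had log2 levels of 11.49, 11.02, 12.41 and 11.57 in R213G bleomycin lungs, against 9.33, 8.59, 9.95 and 8.61 in R213G PBS lungs. The groups did not overlap, and the lowest injured lung stood more than 1 log2 unit above the highest PBS lung. It rose by 2.50 ± 0.42 (SE, limma adjusted p = 0.000281), a 5.66-fold difference. In WT bleomycin lungs its log2 levels were 9.14, 11.28, 10.71 and 10.89, against 8.42, 8.61 and 9.45 in WT PBS lungs. Here 3 of the 4 injured lungs lay above all PBS lungs, and WT bleomycin replicate 1 lay inside the PBS range. The WT rise was 1.68 ± 0.45 (SE, limma adjusted p = 0.0111); it was 1.47 and no longer called without WT PBS replicate 1 (adjusted p = 0.0569), and 2.13 without WT bleomycin replicate 1. In PBS lungs of either genotype the level of miR-18a-5p was near that of miR-17-3p, while in R213G bleomycin lungs, at a mean of 11.62 ± 0.58 (SD, n = 4), it reached that of miR-20a-5p, 11.52 ± 0.28 (SD, n = 4). These levels were taken as equalized read counts, a unit judged from the values alone. The mature RNAs have 21 to 23 bases, so length hardly separates the members.

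Its partner strand miR-18a-3p, from the other arm of the same hairpin, had log2 levels of 6.76, 6.86, 6.87 and 6.91 in R213G bleomycin lungs, against 6.84, 6.83, 6.98 and 6.86 in R213G PBS lungs. These ranges overlapped. The log2 difference was -0.02 with a 95% confidence interval of ± 0.29, which does not reach the rise of the 5p strand. In WT lungs the levels were 7.54, 7.14, 6.88 and 7.19 after bleomycin, against 6.63, 6.77 and 6.87 after PBS. The WT groups did not overlap, but only just, and the rise of 0.43 ± 0.15 (SE, limma adjusted p = 0.0382) was lost in 10 of 18 alternatives, with adjusted p up to 0.186. WT bleomycin replicate 1, the lowest of its group for miR-18a-5p, was the highest for miR-18a-3p.

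The seed-mates miR-17-5p and miR-20a-5p, the guides that restrain Cdkn1a, had smaller differences. The levels of miR-17-5p were tight within groups. For miR-17-5p the log2 levels were 11.79, 11.95, 12.00 and 11.82 in R213G bleomycin lungs, against 11.64, 11.45, 11.64 and 11.37 in R213G PBS lungs. In WT bleomycin lungs they were 11.63, 11.82, 11.63 and 11.72, against 11.23, 11.44 and 11.36 in WT PBS lungs. No injured lung overlapped the PBS lungs of its genotype, and the rise was almost identical in both, 0.36 ± 0.10 in R213G lungs (SE, limma adjusted p = 0.00653) and 0.36 ± 0.10 in WT lungs (SE, limma adjusted p = 0.0162). With equal library medians these rises were 0.23 and 0.24 and were no longer called (adjusted p = 0.0898 and 0.125), and without WT PBS replicate 1 the WT rise was 0.30 (adjusted p = 0.0811). The passenger strand miR-17-3p had log2 levels from 8.92 to 9.16 in R213G bleomycin lungs, against 9.12 to 9.29 in R213G PBS lungs, and from 9.00 to 9.22 in WT bleomycin lungs, against 8.98 to 9.22 in WT PBS lungs. Both pairs of groups overlapped, and the log2 differences of -0.19 and 0.05 were not called.

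The log2 levels of miR-20a-5p were 11.41, 11.36, 11.94 and 11.37 in R213G bleomycin lungs, against 11.18, 10.79, 11.12 and 10.73 in R213G PBS lungs. These groups did not overlap, and replicate 3 stood apart at the top of the injured group. Its rise of 0.57 ± 0.15 (SE, limma adjusted p = 0.00821) was called under all 19 alternatives tried, between 0.43 and 0.64. In WT lungs the log2 levels were 10.83, 11.43, 11.24 and 11.23 after bleomycin, against 10.65, 10.82 and 10.88 after PBS. The WT groups overlapped through WT bleomycin replicate 1 alone, and the difference of 0.40 ± 0.17 (SE) did not pass (limma adjusted p = 0.0861; 0.52 and 0.0262 without that library).

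The miR-19 guides, which are the main oncogenic part of the cluster in mouse lymphoma, were uneven between the lungs of each bleomycin group. In PBS lungs the SD of miR-19a-3p was 0.13 in R213G and 0.29 in WT, and that of miR-19b-3p 0.09 and 0.44. In R213G bleomycin lungs miR-19a-3p had log2 levels of 9.36, 9.34, 10.40 and 9.37, against 8.78, 8.75, 9.01 and 8.74 in R213G PBS lungs. The log2 levels of miR-19b-3p were 12.98, 12.76, 14.35 and 13.20 in R213G bleomycin lungs, against 12.45, 12.51, 12.64 and 12.45 in R213G PBS lungs. Neither pair of groups overlapped, but R213G bleomycin replicate 3 stood about 1 log2 unit above the other injured lungs for both. In limma, miR-19a-3p rose by 0.80 ± 0.25 (SE, adjusted p = 0.0177) and miR-19b-3p by 0.81 ± 0.30 (SE, adjusted p = 0.0382). Without R213G bleomycin replicate 3 these became 0.54 (adjusted p = 0.0596) and 0.47 (adjusted p = 0.14), and neither was called. The same library had the highest log2 of the summed equalized counts of 5 erythroid miRNAs in its group. That log2 sum was 17.22, against 15.40 to 16.24 in the other 3 R213G bleomycin lungs. The part of red cell RNA in the miR-19 levels was not tested.

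In WT bleomycin lungs miR-19a-3p had log2 levels of 8.65, 9.87, 9.59 and 9.35, against 9.11, 8.65 and 8.58 in WT PBS lungs. For miR-19b-3p they were 12.25, 13.52, 12.79 and 13.09 after bleomycin, against 13.15, 12.55 and 12.30 after PBS. WT bleomycin replicate 1 was the lowest and replicate 2 the highest injured lung for both, and both overlapped the PBS lungs. Neither difference passed in limma, 0.58 ± 0.27 for miR-19a-3p (SE, adjusted p = 0.125) and 0.25 ± 0.32 for miR-19b-3p (SE, adjusted p = 0.61). Without WT bleomycin replicate 1, miR-19a-3p was called at 0.82 (adjusted p = 0.0214).

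At the 3′ end of the transcript miR-92a-3p, known for holding back vessel growth, had log2 levels of 16.66, 17.24, 16.90 and 17.18 in R213G bleomycin lungs, against 17.69, 17.67, 17.43 and 17.66 in R213G PBS lungs. All 4 injured lungs lay below all 4 PBS lungs. It fell by 0.62 on the log2 scale, with an SE of 0.12 (limma adjusted p = 0.000709), and was called under all 19 alternatives, between -0.75 and -0.42. In WT lungs its log2 levels were 17.41, 17.31, 17.12 and 17.26 after bleomycin, against 17.49, 17.58 and 17.67 after PBS. The WT groups did not overlap either, but the difference of -0.31 ± 0.13 (SE) did not pass (limma adjusted p = 0.0862; -0.42 and 0.0248 with equal library medians). The log2 of the summed equalized counts of the 5 erythroid miRNAs ran from 15.40 to 17.22 in R213G bleomycin lungs, against 16.26 to 17.82 in R213G PBS lungs. That log2 sum ran from 14.59 to 15.10 in WT bleomycin lungs, against 16.52 to 17.79 in WT PBS lungs. The part of red cell RNA in the level of miR-92a-3p was not tested.

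The other strand of that last hairpin went the opposite way to miR-92a-3p. The level of miR-92a-3p also holds the chromosome X copy, so the 3p strand of this hairpin alone is not known. Unlike miR-92a-3p, the strand miR-92a-1-5p (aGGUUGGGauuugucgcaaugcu) has only the chromosome 14 copy as its source, and it was not a member by name. Its log2 levels were 9.04, 8.92, 9.01 and 9.00 in R213G bleomycin lungs, against 8.26, 8.47, 8.31 and 8.43 in R213G PBS lungs, and 9.32, 8.80, 9.01 and 8.89 in WT bleomycin lungs, against 8.48, 8.65 and 8.41 in WT PBS lungs. In both genotypes all injured lungs stood above all PBS lungs. It rose by 0.63 ± 0.12 in R213G lungs (SE, limma adjusted p = 0.000709) and by 0.49 ± 0.13 in WT lungs (SE, limma adjusted p = 0.00934); with equal library medians the WT rise was 0.38 and was not called (adjusted p = 0.075). Over all tested miRNAs 22.2% rose in R213G lungs and 16.4% in WT lungs. Of the 4 strands of the cluster outside the 8 members, 1 rose in R213G lungs and 2 rose in WT lungs, and 0 fell. The second WT riser was the scarce miR-19a-5p, by 1.73 ± 0.46 (SE, limma adjusted p = 0.00966), at log2 levels of 3.17 to 4.44 in WT bleomycin lungs, against 1.39 to 3.48 in WT PBS lungs.

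**Figure D2:**
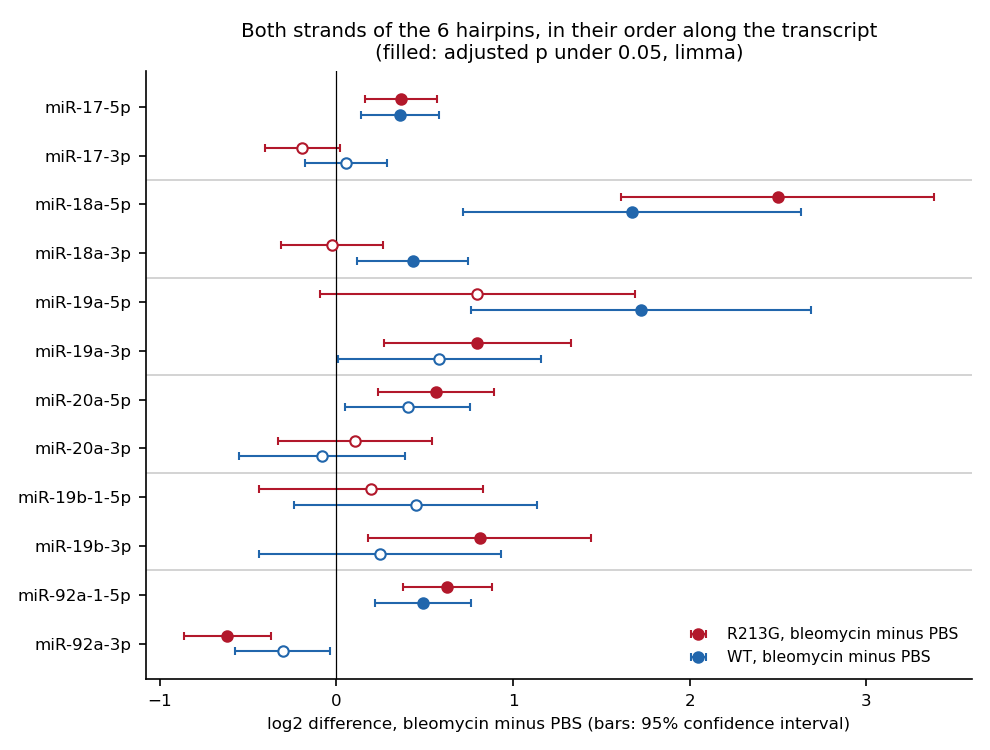
Log2 difference between bleomycin and PBS lungs (x axis, with 95% confidence intervals before adjustment) for both strands of the 6 hairpins, in their order along the transcript from top to bottom, with R213G lungs in red above WT lungs in blue. Filled points passed an adjusted p of 0.05 in limma; miR-18a-5p stood apart from miR-18a-3p in R213G lungs (2.50 against -0.02), and the strands of the miR-92a-1 hairpin lay on opposite sides of 0 (0.63 against -0.62 in R213G lungs).

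Because a ratio between members within a library does not depend on how that library was scaled, 4 such ratios were compared by exact two-sided permutation tests over libraries, with 16 tests in all. The log2 ratio of miR-18a-5p to miR-18a-3p was 4.73, 4.15, 5.54 and 4.66 in R213G bleomycin lungs, against 2.50, 1.76, 2.97 and 1.75 in R213G PBS lungs. It was 1.61, 4.14, 3.82 and 3.70 in WT bleomycin lungs, against 1.79, 1.84 and 2.59 in WT PBS lungs. Relative to the 3p strand, every injured lung thus held more of the 5p strand than any PBS lung of its genotype, except WT bleomycin replicate 1, which had the lowest ratio of all 15. The ratio was 2.52 higher after bleomycin in R213G lungs (exact permutation p = 0.0286) and 1.24 higher in WT lungs (exact permutation p = 0.229), and, among injured lungs, 1.45 higher in R213G than in WT (exact permutation p = 0.0286).

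The log2 ratio of miR-92a-3p to miR-17-5p, the last against the first guide of the transcript, was 4.87, 5.29, 4.89 and 5.36 in R213G bleomycin lungs, against 6.05, 6.22, 5.78 and 6.29 in R213G PBS lungs. In WT lungs it was 5.78, 5.49, 5.49 and 5.55 after bleomycin, against 6.27, 6.15 and 6.31 after PBS. It was lower in every injured lung than in any PBS lung of its genotype, by 0.98 in R213G and 0.66 in WT lungs, and lower in every R213G than in any WT injured lung, by 0.47. The exact permutation p was 0.0286 in R213G lungs, 0.0571 in WT lungs and 0.0286 between injured lungs, in each case the smallest that 4 against 4 or 4 against 3 libraries can give. The log2 ratio of miR-17-5p to miR-17-3p averaged 2.87 ± 0.11 in R213G bleomycin lungs and 2.31 ± 0.18 in R213G PBS lungs (SD, n = 4 each; exact permutation p = 0.0286), and 2.54 ± 0.19 in WT bleomycin lungs and 2.24 ± 0.13 in WT PBS lungs (SD, n = 4 and 3; exact permutation p = 0.0571). For miR-19b-3p to miR-19a-3p, the pair that differs by 1 base, it averaged 3.71 ± 0.24 in R213G bleomycin lungs and 3.69 ± 0.05 in R213G PBS lungs, and 3.55 ± 0.23 in WT bleomycin lungs and 3.88 ± 0.16 in WT PBS lungs, with no test under 0.05. None passed after adjustment over the 16 tests, where the lowest adjusted p from exact permutation tests was 0.0914. With so few libraries none could have passed 0.05 whatever the values, so the adjustment decides nothing here.

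**Figure D3:**
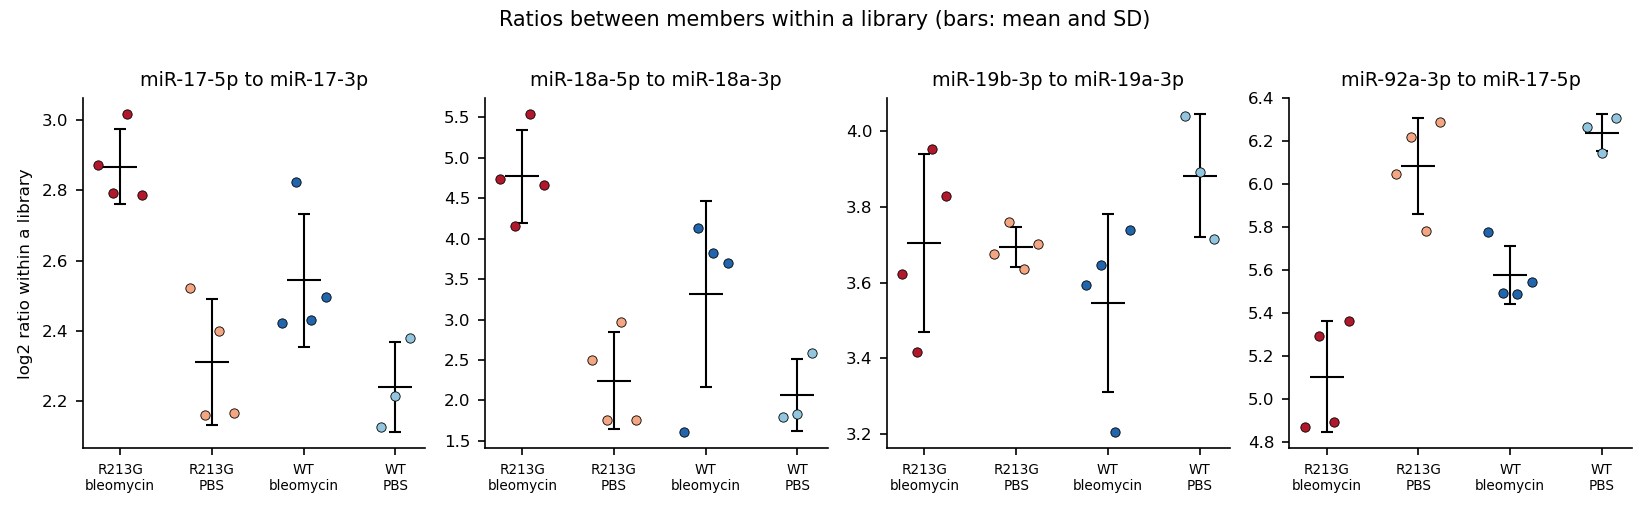
Log2 ratio between pairs of members within each library (y axis, not starting at 0) for the 4 groups (x axis), with group mean and SD. The ratio of miR-92a-3p to miR-17-5p ran from 4.87 to 5.36 in R213G bleomycin lungs and from 5.78 to 6.29 in R213G PBS lungs, while that of miR-19b-3p to miR-19a-3p overlapped in all groups.

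In total the 8 members made up between 0.639% and 0.930% of the equalized counts of a library in R213G bleomycin lungs, against 0.874% to 0.992% in R213G PBS lungs, and 0.747% to 0.969% in WT bleomycin lungs, against 0.840% to 1.06% in WT PBS lungs. That total is mostly miR-92a-3p, which held 77.0% to 90.1% of the members' counts in R213G bleomycin lungs, against 92.6% to 94.7% in R213G PBS lungs, and 88.0% to 93.8% in WT bleomycin lungs, against 92.6% to 94.9% in WT PBS lungs. Leaving it out, the other 7 members held 0.0895% to 0.172% in R213G bleomycin lungs, against 0.0521% to 0.0646% in R213G PBS lungs. In WT bleomycin lungs they held 0.0573% to 0.116%, against 0.0487% to 0.0642% in WT PBS lungs. The percentage held by all 8 members overlapped between treatments in both genotypes, although their summed equalized counts did not (121880 to 171924 in R213G bleomycin lungs, against 190326 to 223950 in R213G PBS lungs, and 158316 to 185884 in WT bleomycin lungs, against 199021 to 220331 in WT PBS lungs). The library totals under that percentage differed too, being lower in all R213G bleomycin lungs than in any R213G PBS lung. The percentage held by the 7 members other than miR-92a-3p was higher in all R213G bleomycin lungs than in any R213G PBS lung. By mean level over all libraries, miR-92a-3p ranked 21 of the 818 tested miRNAs, miR-19b-3p 104, miR-17-5p 146 and miR-18a-3p, the scarcest member, 351.

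Members also differed in how even their levels were within a group. The pooled SD within groups was 0.71 for miR-18a-5p, 0.50 for miR-19b-3p and 0.41 for miR-19a-3p, against 0.11 for miR-17-5p and 0.10 for miR-17-3p. Among the 287 tested miRNAs with a mean log2 level above 8, whose median SD was 0.18, only 3 had a larger SD than miR-18a-5p. R213G bleomycin replicate 3 was above its group mean by 0.78 for miR-18a-5p, 0.78 for miR-19a-3p, 1.03 for miR-19b-3p and 0.42 for miR-20a-5p. WT bleomycin replicate 1 lay -1.36, -0.71, -0.66 and -0.35 from its group mean for the same members. For miR-17-5p the deviations in these libraries were 0.11 and -0.07, small on the log2 scale but to be read beside its pooled SD of 0.11. Its deviations over all libraries correlated at r = 0.78 with miR-20a-5p and 0.61 with miR-18a-5p, but at -0.11 with miR-17-3p. Across the 15 libraries, deviations from group means correlated at r = 0.93 between miR-19a-3p and miR-19b-3p and at r = 0.89 between miR-18a-5p and miR-20a-5p, but at -0.26 between the strands of miR-18a and -0.36 between miR-18a-5p and miR-92a-3p. These are descriptions over libraries that share their processing and scaling.

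**Figure D4:**
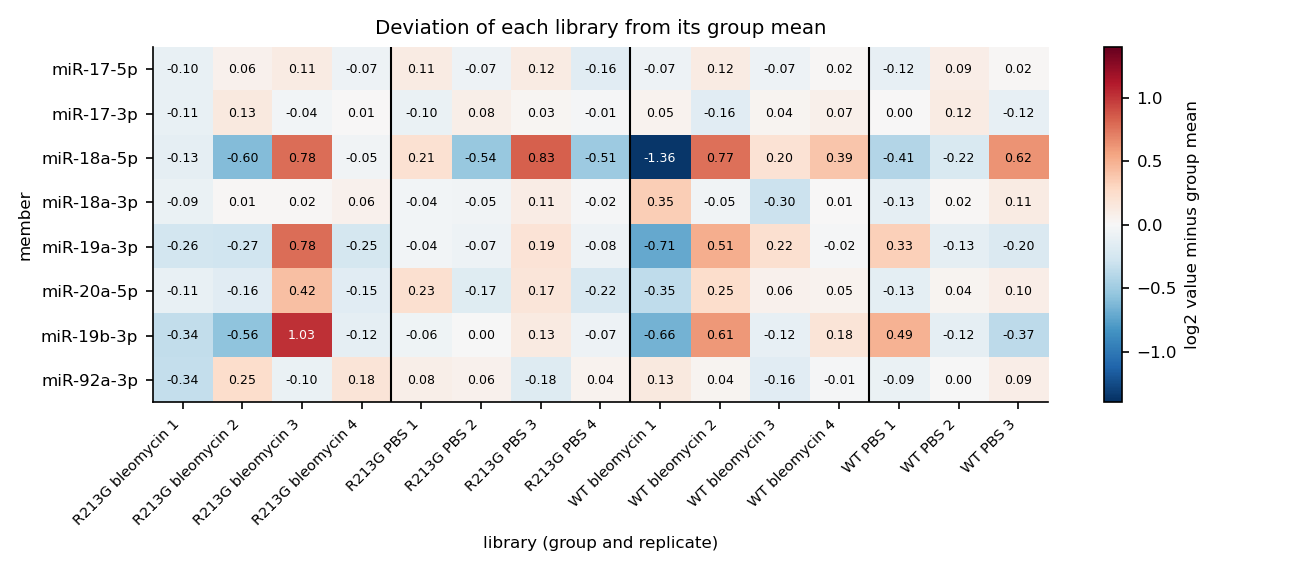
Deviation of each library (x axis) from the mean of its group for each member (y axis), on the log2 scale, with red above and blue below the mean. The columns of R213G bleomycin replicate 3 and WT bleomycin replicate 1 move in opposite directions for miR-18a-5p, miR-19a-3p, miR-20a-5p and miR-19b-3p.

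The tags of the 8 R213G libraries are numbered consecutively in the labels, and those of the WT libraries form a separate run, so that tag number and genotype cannot be told apart. The R213G tags were split here into a lower and an upper 4, a division that the labels do not make and that puts 2 bleomycin and 2 PBS lungs in each part. Within the lower and the upper 4 the bleomycin difference was 2.31 and 2.69 for miR-18a-5p, 0.26 and 0.47 for miR-17-5p, 0.52 and 0.61 for miR-20a-5p, and -0.78 and -0.45 for miR-92a-3p on the log2 scale. For the miR-19 guides it was 0.99 and 0.61 for miR-19a-3p and 1.12 and 0.50 for miR-19b-3p, the lower 4 holding R213G bleomycin replicate 3. Every member called in R213G lungs kept its sign within both parts, with 2 lungs against 2 and no test. This was bound to happen, since the bleomycin and PBS lungs did not overlap for any of these members. The kept signs therefore say nothing about tag number. Among R213G PBS lungs, replicates 1 and 3 of the lower 4 had more miR-18a-5p (9.33 and 9.95) than replicates 2 and 4 of the upper 4 (8.59 and 8.61), and the same order held for miR-17-5p and miR-20a-5p. The erythroid sums were ordered likewise, 17.82 and 17.78 in the lower 4 and 16.90 and 16.26 in the upper 4; the part of either in the level of these members was not tested.

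Set directly against each other, the genotypes gave no call for a member. Between R213G and WT injured lungs 0 of 818 miRNAs passed in limma (0%, with 97 at an unadjusted p under 0.05), between R213G and WT PBS lungs 0 (0%, with 44), and for the difference of the bleomycin responses 0 (0%, with 65). Among injured lungs miR-18a-5p was 1.12 ± 0.42 higher in R213G than in WT (SE, limma unadjusted p = 0.0168, adjusted p = 0.387), with a 95% confidence interval of ± 0.89. In the same comparison miR-20a-5p differed by 0.34 (limma adjusted p = 0.399), miR-92a-3p by -0.28 (adjusted p = 0.387) and miR-18a-3p by -0.34 (adjusted p = 0.387). Between PBS lungs the difference for miR-18a-5p was 0.29 (limma adjusted p = 0.991), and no member differed by more than that. The bleomycin responses of miR-18a-5p differed by 0.82 between genotypes, with an interval of ± 1.31 (limma adjusted p = 0.738), those of miR-92a-3p by -0.31 (adjusted p = 0.625) and those of miR-17-5p by 0.00 (adjusted p = 0.988). A difference in response of the size of the whole WT rise of miR-18a-5p thus lies inside the interval, and a member called in R213G lungs alone is not shown to respond differently there.

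The authors' deposited table gives its own test of each treatment comparison within a genotype. In R213G lungs the parametric q-values of the authors' deposited table were lowest among members for miR-18a-5p (0.0227), followed by miR-17-5p (0.0545) and miR-92a-3p (0.0748). In WT lungs the lowest parametric q-value of the authors' deposited table among members was 0.142, for miR-17-5p. In the authors' deposited table, then, miR-18a-5p in R213G lungs is the only member with a parametric q-value under 0.05 in these comparisons.

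The paralogous miR-106a to miR-363 cluster on the X chromosome carries near copies of most members. Of 10 listed mature forms, 9 were in the table and 7 passed the filter (miR-106a-3p and miR-92a-2-5p did not). Of these 7, 1 rose and 0 fell in R213G lungs (median log2 difference 0.15), and 4 rose and 0 fell in WT lungs (median 0.66). The shares rising over all tested miRNAs were 22.2% in R213G lungs and 16.4% in WT lungs. The copy of miR-18a-5p is miR-18b-5p, which shares the seed AAGGUGC and differs by A18U and A20U, with the miR-18a-5p base first.
mmu-miR-18a-5p: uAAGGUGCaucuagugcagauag
mmu-miR-18b-5p: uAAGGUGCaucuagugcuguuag
Its log2 levels ran from 4.13 to 5.66 in R213G bleomycin lungs, against 3.45 to 4.06 in R213G PBS lungs, and from 4.17 to 5.08 in WT bleomycin lungs, against 2.68 to 3.31 in WT PBS lungs. Like miR-18a-5p it rose in both, by 1.24 ± 0.30 in R213G lungs (SE, limma adjusted p = 0.00398) and by 1.60 ± 0.33 in WT lungs (SE, limma adjusted p = 0.0017), from much lower levels. The seed-mates of miR-17-5p from that cluster were called in WT lungs, with log2 differences of 0.70 for miR-106a-5p and 0.60 for miR-20b-5p (limma adjusted p = 0.0143 and 0.00965), and gave 0.18 and 0.35 in R213G lungs (adjusted p = 0.459 and 0.0667). The seed-mate of miR-92a-3p there, miR-363-3p, had a log2 difference of 0.66 in WT lungs (limma adjusted p = 0.0223) and of 0.15 in R213G lungs (adjusted p = 0.538).

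The second paralogous cluster, miR-106b to miR-25, lies in an intron of the replication gene Mcm7. Of its 6 mature forms 1 rose and 0 fell in R213G lungs (median log2 difference -0.04), and 0 were called in WT lungs (median 0.05). The riser was miR-106b-5p, a seed-mate of miR-17-5p, by 0.54 ± 0.14 (SE, limma adjusted p = 0.00657), and its WT difference of 0.20 did not pass (adjusted p = 0.344). Another seed-mate, miR-93-5p, averaged a log2 level of 14.35 in R213G bleomycin lungs and 14.39 in R213G PBS lungs, above every AAAGUGC member of the miR-17 to miR-92a cluster, and gave -0.04 there and 0.00 in WT lungs. The seed-mate of miR-92a-3p, miR-25-3p, gave 0.08 in R213G lungs (limma adjusted p = 0.622) and 0.03 in WT lungs (adjusted p = 0.899). Of miR-92a-3p, miR-363-3p and miR-25-3p, the listed miRNAs with the seed AUUGCAC, miR-92a-3p alone had a difference below 0; other carriers of this seed were not analysed here.

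**Figure D5:**
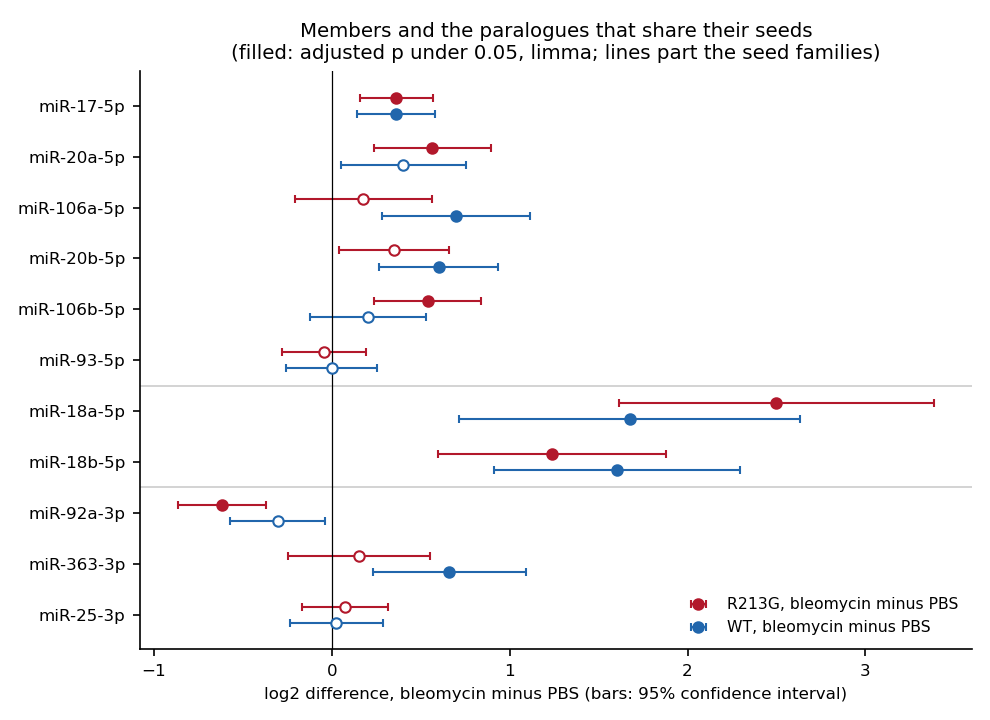
Log2 difference between bleomycin and PBS lungs (x axis, with 95% confidence intervals before adjustment) for the members and the paralogues that share their seeds, in families with seeds of the miR-17, miR-18a and miR-92a guides from top to bottom, with R213G lungs in red above WT lungs in blue. Filled points passed an adjusted p of 0.05 in limma; miR-18a-5p and miR-18b-5p rose in both genotypes, whereas miR-93-5p lay at -0.04 in R213G and 0.00 in WT lungs.

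Among miRNAs outside the cluster, 5 followed its own members (those of miR-17, miR-18a, miR-19a and miR-20a) most closely in level over the 15 libraries, by the Pearson r with the mean of their z-scored log2 levels. They were miR-18b-5p (r = 0.93), miR-7a-5p (0.92), miR-301b-3p (0.92), miR-142a-3p (0.91) and miR-1927 (0.90). Part of this likeness is the difference between treatments that they share: over deviations from group means the r was 0.70, 0.69, 0.58, 0.58 and 0.70 in that order. The leukocyte miRNA miR-142a-3p rose by 0.85 in R213G lungs and 1.20 in WT lungs, and miR-7a-5p by 0.92 and 1.01 on the log2 scale.

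Another 2 lists of growth-related miRNAs give the setting. Over all tested miRNAs 22.2% rose and 19.8% fell in R213G lungs, and 16.4% rose and 10.3% fell in WT lungs. The lists below were chosen with earlier results of these data known, so their counts are descriptions only. Of 7 miRNAs linked to growth, 6 rose in R213G lungs and 5 in WT lungs, and 0 fell; miR-21a-5p, which restrains Pdcd4, had the smallest p, with log2 differences of 2.02 in R213G lungs and 1.94 in WT lungs. Of 8 miRNAs that restrain the cell cycle, 2 rose and 3 fell in R213G lungs, and 1 rose and 1 fell in WT lungs. Among them miR-34a-5p, a p53 target, rose by 1.30 ± 0.11 in R213G lungs (SE, limma adjusted p = 3.14e-07) and by 1.08 ± 0.12 in WT lungs (SE, limma adjusted p = 8.18e-06). As deposited, both miR-34a-5p and miR-17-5p were higher in every injured lung than in any PBS lung of its genotype, which did not hold for miR-20a-5p in WT lungs. Next in this list by p came miR-15b-5p, which rose by 0.52 in R213G lungs (limma adjusted p = 0.00471; 0.35 and 0.0752 in WT lungs), and miR-322-5p, which fell in R213G lungs with a log2 difference of -0.53 (limma adjusted p = 0.00836; -0.27 and 0.21 in WT lungs). Of 7 leukocyte miRNAs 3 rose and 1 fell in R213G lungs and 4 rose in WT lungs. The log2 of their summed equalized counts ran from 17.14 to 17.40 in R213G bleomycin lungs, against 17.33 to 17.50 in R213G PBS lungs. That log2 sum ran from 17.20 to 17.58 in WT bleomycin lungs, against 16.94 to 17.07 in WT PBS lungs. The abundant miR-150-5p and miR-142a-5p weigh most in it. In R213G lungs their mean log2 levels were 15.78 and 16.10 after bleomycin, against 16.47 and 15.89 after PBS. No leukocyte miRNA was at 0 in any library, and the part of leukocytes in the members' levels was not tested. Of 5 epithelial miRNAs 3 fell in R213G lungs and 1 in WT lungs, with none at 0. The log2 of their summed equalized counts lay between 17.86 and 18.37 in all libraries. Of 4 miRNAs of other organs 0 were called in either genotype.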

How the data were processed

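The authors deposited 1 log2 value per library for each of 1424 mature miRNAs. Judged from the values alone, these are log2(1 + x), with x a count equalized across libraries; RPKM appears in the table's name, no source used here describes the unit, and read counts could not be recovered. The submitters' processing notes name Bowtie2 2.3.2, SAMtools 1.9 and edgeR; no source used here gives their roles, the genome build or the miRBase release. The deposited fold changes, on the log2 scale, equalled differences of group means on all rows, and the authors' deposited p-values and q-values come from Welch and Wilcoxon tests.

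The planned count test was not run, since the table holds log2 values. They entered limma 3.58.1 (R 4.3.3) as deposited, with 1 mean for each group, all 15 libraries and a trend of variance on intensity, for 5 contrasts. The 818 miRNAs tested exceeded an equalized count of 5 in 3 or more libraries. Ratios within a library were compared by exact permutation tests. Named miRNAs were the members, the other strands and paralogues, up to 3 per list with the smallest p, and the 5 most similar non-members. The members and lists were chosen with earlier results of these data known. The procedure was tested on simulated data. Sequences are RefSeq's (GRCm38.p6), and gene annotation is GENCODE M21. Library sums of 18087289.8 to 24759615.3 equalized counts are not read depths, so no counting interval is given. Alternatives covered each library left out, filters, pseudocount, scaling, trend, array weights, replicate block, tag numbers, groups compared and threshold.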

Additional observations from a re-analysis of the deposited data

Results flagged for a closer look

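In 5 of 48 groups of 4 libraries checked (10.4%), over the members, the other strands of the cluster and the 4 ratios, 1 library stood apart from the other 3 by Dixon's criterion; chance alone marks about 1 group in 20. R213G bleomycin replicate 3 was the highest of its group for miR-19a-3p, at a log2 level of 10.40, and for miR-20a-5p, at 11.94. Without it miR-19a-3p was no longer called in R213G lungs (0.54, limma adjusted p = 0.0596), and miR-20a-5p still was. R213G PBS replicate 3 was the highest of its group for miR-19a-3p, at 9.01, and the lowest for miR-92a-3p, at 17.43. WT bleomycin replicate 2 was the lowest of its group for miR-17-3p, at 9.00, a member that was not called in WT lungs with or without it.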

How the results depend on the processing

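No called value changed sign under any alternative. Of 808 alternative values of the members, 774 stayed called or not called as before or, where no test was run, stayed within 1 SD. That total pools all 5 contrasts, including the genotype comparisons, in which no member was called, so it overstates how firmly the calls after bleomycin held. In WT lungs the call of miR-18a-3p was lost in 10 of 18 alternatives, that of miR-17-5p in 3 and that of miR-18a-5p in 1. Main counts of members up and down were 5 and 1 in R213G and 3 and 0 in WT lungs. Over all tested miRNAs the main counts were 182 and 162 in R213G and 134 and 84 in WT lungs. With equal library medians the counts of members were 3 and 2 in R213G and 1 and 1 in WT lungs. Those over all tested miRNAs were then 148 and 199 in R213G and 110 and 121 in WT lungs. In WT lungs 5 members rose with array weights and 1 with only the groups compared, and 1 fell with the tag term or at an adjusted p under 0.1. Among all tested miRNAs 165 rose with array weights and 108 with only the groups compared in WT lungs. There 98 fell with the tag term and 116 at an adjusted p under 0.1. Leaving out each library gave 3 to 5 members up in R213G lungs (3 without R213G bleomycin replicate 3). In WT lungs it gave 0 to 4 members up (0 without WT PBS replicate 1). Of all tested miRNAs, 154 to 181 then rose in R213G lungs (162 without R213G bleomycin replicate 3). In WT lungs 101 to 163 of all tested miRNAs rose (104 without WT PBS replicate 1). Between injured lungs of the genotypes, the count of miRNAs called (0) became 2 with array weights, 1 with the tag term, and 0 to 1 with each library left out (1 without WT bleomycin replicate 1). The cause of these changes was not tested. Replicate numbers were not taken to pair the samples, since deviations of same-numbered bleomycin and PBS libraries did not all correlate above 0.1: r was -0.14, 0.14, 0.26 and 0.14 in R213G lungs and -0.04, -0.14 and -0.09 in WT lungs. The replicate block changed 1 member call, miR-18a-3p in WT lungs (0.43, adjusted p = 0.0786). The call of miR-19b-3p in R213G lungs was lost in 8 of 19 alternatives (adjusted p up to 0.14). Those of miR-18a-5p, between 2.24 and 2.78, and of miR-20a-5p and miR-92a-3p in R213G lungs held in all 19. With unknown read depths, the counting error in the differences of scarce strands could not be estimated, and none is given.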
